A study of Sus scrofa with 40 samples.

Results

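The cortex (C) and the corticomedullary junction (CMJ) of control porcine kidneys were compared on 10 of the 40 single-color Agilent arrays of the series. The members are set by their labels alone, as the 5 arrays of control cortex (Ctl-C) and the 5 of control CMJ (Ctl-CMJ). The control kidneys came from Large White pigs 3 months old, independent brother animals, and were sampled and frozen at once after removal. The other arrays hold the same 2 tissues, 5 arrays each, after 60 min of warm ischemia (WI) at 37 °C, or after WI and 6 h or 24 h of cold storage (WI+CS6h, WI+CS24h) in preservation solution at 4 °C, where the same 5 kidneys were sampled at both times. Each array read the total RNA of 1 biopsy, amplified and labelled as complementary RNA, a mixture of all cell types of that zone. The 5 control kidneys gave both tissues, but which cortex sample shares a kidney with which CMJ sample is not stated, and the p-values below treat the 10 samples as separate. In biopsies of whole tissue, fewer cells of a type and less RNA per cell cannot be told apart.

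The outer zones of the kidney differ in the tubule segments they hold. Glomeruli and proximal convoluted tubules, which take back most of the filtered solutes, lie in the cortex, while proximal straight tubules run down into the outer medulla, where the thick ascending limbs of the loop of Henle, which dilute the urine and feed the medullary salt gradient, take over. Collecting ducts with their principal cells (water and sodium) and intercalated cells (acid and base) cross both zones, so a biopsy of the junction holds a different proportion of each segment from one of the cortex.

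All values are log2 intensities, that is the background-subtracted scanner brightness of a probe on the log2 scale after all 40 arrays were brought to 1 distribution (quantile normalization), and a difference is CMJ minus cortex, so that 1 log2 unit is a doubling. Levels are compared between samples for 1 probe set and never between genes. An identifier was called where limma gave an adjusted p under 0.05 (Benjamini-Hochberg over all 35943 identifiers tested) and a log2 difference of at least 0.5 in size.

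The letters that were read are shown first for the given markers AQP3 and ABCC2, which did not pass the test, and for a few tubule genes described below, several of them measured by probes from unrelated stretches of the transcript. Each is a probe of 60 bases on the array, 5′ to 3′, in the sense of the mRNA, in lower case throughout because the whole stretch binds the labelled RNA. The array files do not place these probes on a named genome build, so no coordinates are given. The first is a probe of AQP3, a water and glycerol channel of collecting duct principal cells, and the next 2 are probes of ABCC2, an export pump of the proximal tubule brush border.
AQP3, probe 2: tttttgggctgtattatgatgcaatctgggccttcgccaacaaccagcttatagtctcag
ABCC2, probe 2: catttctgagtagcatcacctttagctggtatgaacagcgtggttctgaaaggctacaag
ABCC2, probe 3: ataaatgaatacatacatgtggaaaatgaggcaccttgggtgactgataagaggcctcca
The next set holds 2 probes of OAT, the mitochondrial enzyme ornithine aminotransferase, and 1 of SLC5A1, the sodium-glucose cotransporter SGLT1 of the proximal straight tubule.
OAT, probe 8: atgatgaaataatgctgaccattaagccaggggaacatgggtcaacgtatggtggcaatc
OAT, probe 10: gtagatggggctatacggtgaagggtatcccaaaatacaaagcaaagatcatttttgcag
SLC5A1, probe 1: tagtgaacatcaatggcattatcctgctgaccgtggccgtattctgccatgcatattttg
The last set shows genes that were lower in CMJ, SLC22A8, which carries organic anions into proximal tubule cells and is known as OAT3 (a different gene from OAT above), and SLC26A6, an anion exchanger of the proximal tubule.
SLC22A8, probe 1: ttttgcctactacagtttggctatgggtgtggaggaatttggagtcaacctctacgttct
SLC26A6, probe 1: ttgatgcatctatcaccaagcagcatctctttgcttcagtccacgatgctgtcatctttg
SLC26A6, probe 2: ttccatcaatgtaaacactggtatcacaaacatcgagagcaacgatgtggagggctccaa

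Probes of 1 gene gave like differences between the tissues. The 4 probes of ABCC2 gave -0.55, -0.50, -0.52 and -0.59, and they shared no run longer than 6 bases. The 2 probes of AQP3 gave 0.46 and 0.51. All 10 probes of OAT lay between 0.87 and 1.14, although several of them overlap each other by up to 51 bases, and the 5 of SLC5A1 lay between 1.35 and 1.45. For UPK3A, a plaque protein of the urothelium, the array holds 2 sense probes that share a run of 36 bases and are therefore not independent readings, and probe 3 is the exact reverse complement of the first. This can be seen in 30 bases of each, the start of probe 1 and the end of probe 3.
UPK3A, probe 1, bases 1 to 30: aaagcgctccattacatcgtcccaggattc
UPK3A, probe 3, bases 31 to 60: gaatcctgggacgatgtaatggagcgcttt
The sense probes gave log2 differences of 2.16 and 2.14 and were well above background on all 10 arrays, while the antisense probe was well above background on none of them.

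Of the 35943 identifiers tested, 81 were called between CMJ and cortex of control kidneys, which is 0.225% of them. Of these, 62 (0.172%) were higher in CMJ and 19 (0.0529%) were lower, and the median difference over all identifiers was -0.01. At an unadjusted p under 0.05 there were 3336 identifiers, or 9.28%. The fitted sizes of the called differences ran from 0.50 to 3.14 on the log2 scale, and 43 of the 81 were at least a doubling or a halving as fitted. Of the 81, 7 were well above background on no array of 1 tissue and 2 on no array of either, so that these fitted sizes, 3.14 among them, are not exact. A symbol was known for 41 of the 81 identifiers, which stand for 36 genes, 30 of them higher and 6 lower in CMJ. Among the identifiers without a symbol, the largest rise was 2.58.

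This count depended strongly on single arrays. The cortex array of replicate 5 lay nearest to CMJ among the 5 cortex arrays for 45 of the 62 identifiers that were higher in CMJ and for 8 of the 19 that were lower, while over all identifiers it was the highest cortex array in 34.4% and the lowest in 24.2%. Without it, 245 identifiers were called (0.682%), 172 higher and 73 lower, and they included 76 of the 81. Without Ctl-CMJ replicate 3, 190 were called, 155 higher and 35 lower. Without Ctl-CMJ replicate 1 limma called 0, with 2671 at an unadjusted p under 0.05, so every control call named below was lost in that fit. Leaving out Ctl-C replicates 1, 2, 3 or 4 gave 6, 7, 9 and 13 calls, and leaving out Ctl-CMJ replicates 2, 4 or 5 gave 9, 59 and 19. With the replicate number as a block 1 of the 81 remained called, and whether that number marks a kidney is not stated. In the fit of all 40 arrays, where all groups share 1 estimate of the spread, 112 were called, of which 35 were among the 81. That fit has no term for the kidney and treats the 40 samples as separate, although the 6 h and 24 h arrays come from the same kidneys. With the scan day as a block 35 of the 81 remained called and no other identifier was added, and the share of calls that were higher in CMJ, 76.5% of the 81, became 91.9% of 74 when arrays were scaled to their 75th percentile and 37.4% of 187 when quantile normalization was done within each group. Within the first scan day (2 cortex and 2 CMJ arrays) the median difference of the 62 was 1.29 and within the second (3 and 3) it was 1.14, against 1.17 over all 10 arrays, and for the 19 it was -0.71, -0.60 and -0.69. Since the identifiers were chosen on these same arrays, values within a scan day are no separate check. This holds as well for the called genes given by scan day below.

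**Figure D1:**
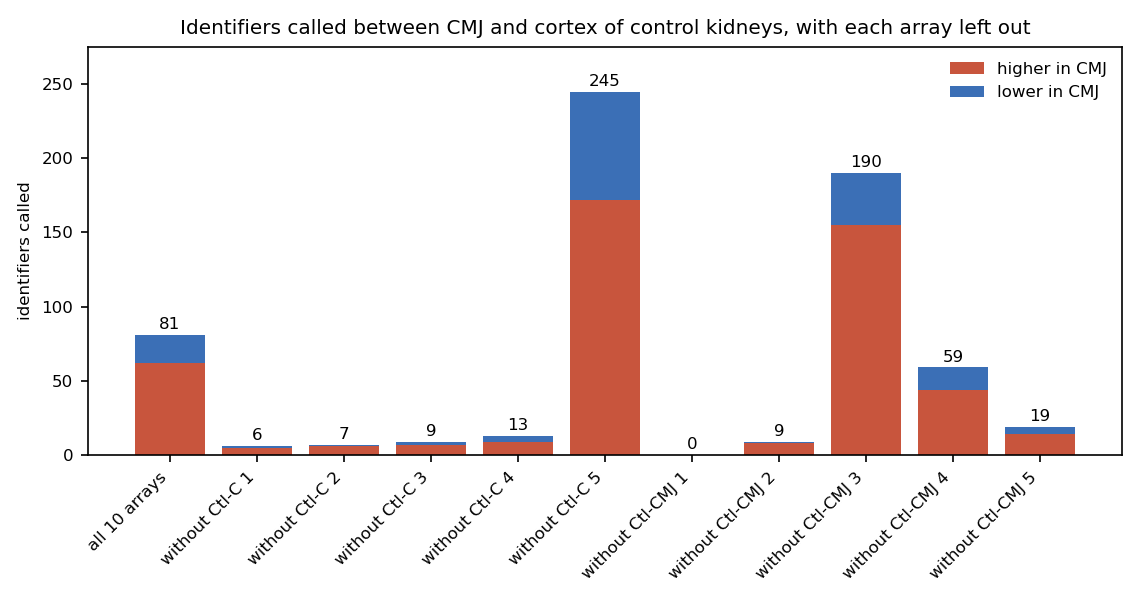
Number of identifiers called between CMJ and cortex of control kidneys with all 10 arrays and with each array left out in turn, split into those higher (red) and lower (blue) in CMJ. The count was 81 with all arrays, 245 without Ctl-C replicate 5, 190 without Ctl-CMJ replicate 3 and 0 without Ctl-CMJ replicate 1.

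Measures of the whole array overlapped between the tissues. The share of spots well above background was 62.9% to 68.2% on cortex arrays and 61.4% to 67.8% on CMJ arrays, that of saturated spots was 0.304% to 0.518%, and the correlation between arrays over all identifiers was 0.984 to 0.995 within cortex, 0.984 to 0.993 within CMJ and 0.983 to 0.991 between the tissues. Cortex arrays lay on 5 slides and CMJ arrays on 5, with a shared slide in 2 cases, and with slide as a random block the same 81 identifiers were called.

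The markers given for the zones did not pass the threshold. AQP3 measured 8.09, 8.27, 8.06, 8.31 and 8.76 on cortex arrays 1 to 5 and 8.88, 8.56, 8.19, 8.88 and 9.39 on CMJ arrays 1 to 5. Cortex array 5 lay above CMJ arrays 2 and 3, CMJ array 3 lay below 3 of the cortex arrays, and the log2 difference was 0.48 (SE 0.22, limma adjusted p = 0.546). ABCC2 measured 10.86, 10.89, 10.85, 11.05 and 11.18 on the cortex arrays and 10.48, 10.47, 10.70, 10.27 and 10.17 on the CMJ arrays. Here the groups did not overlap, and the lowest cortex array lay above the highest CMJ array, with a difference of -0.55 (SE 0.11, limma adjusted p = 0.1). These values are those of ABCC2 probe 1. On ABCC2 probes 2, 3 and 4, which belong to another identifier, the arrays of the tissues overlapped. ABCC2 was called, and fell by 0.55, in the fit of all 40 arrays, by 0.54 in the deposited matrix, by 0.68 with quantile normalization within each group and by 0.62 without Ctl-CMJ replicate 3, and in no other alternative. UMOD, uromodulin of the thick ascending limb, was not analysed here, and the thick ascending limb was read through its other genes.

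**Figure D2:**
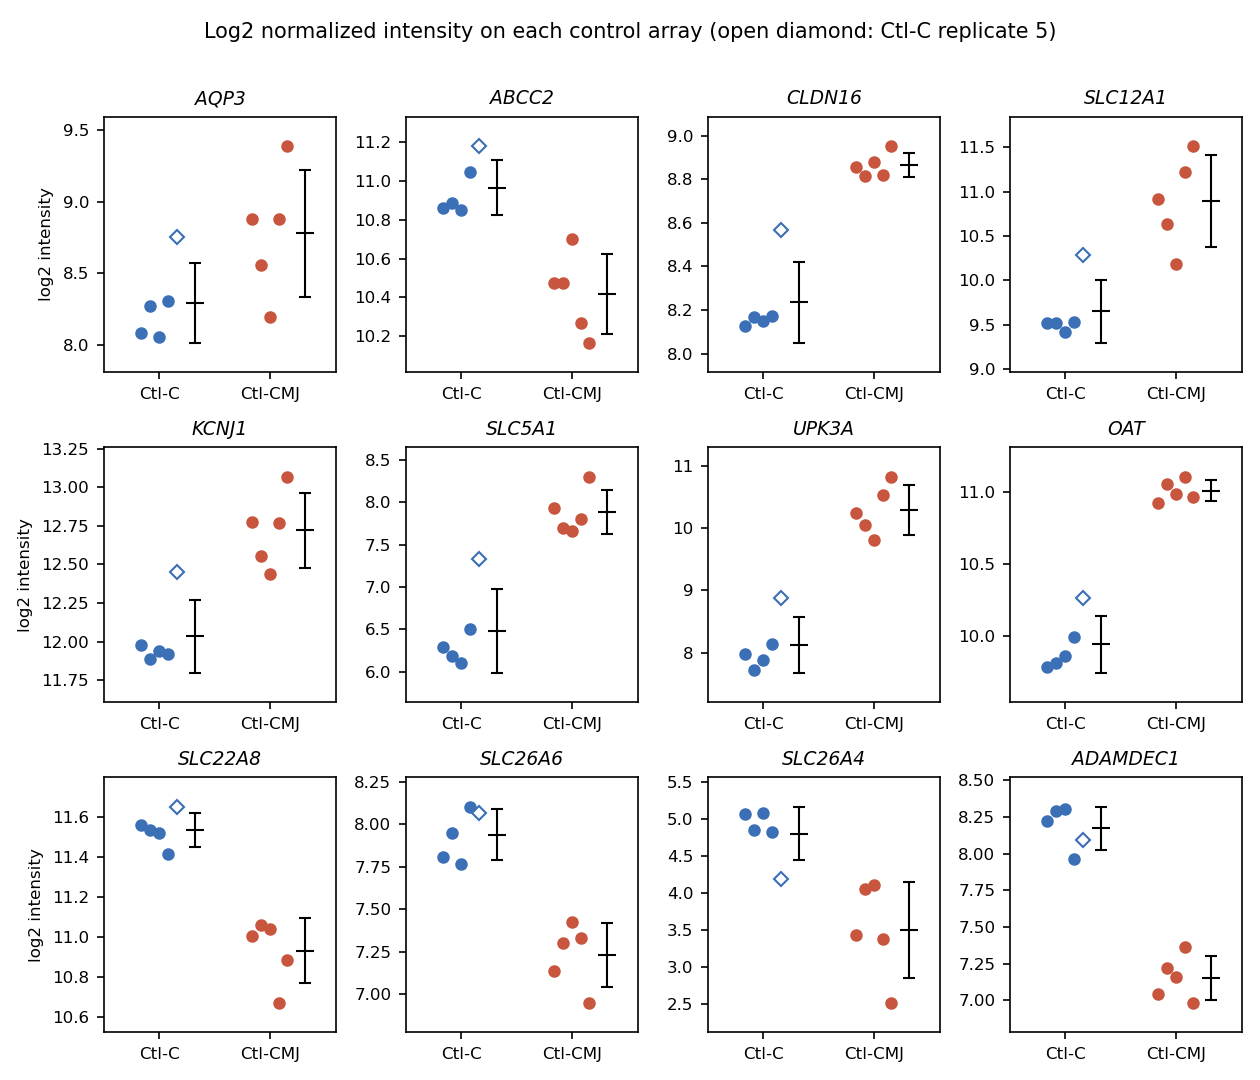
Log2 normalized intensity of 12 genes on each of the 5 cortex (blue) and 5 CMJ (red) arrays of control kidneys, with the mean and SD of each group as black bars and Ctl-C replicate 5 as an open diamond. CLDN16, UPK3A and OAT lie higher in CMJ on all arrays, SLC22A8, SLC26A6 and ADAMDEC1 lower, and Ctl-C replicate 5 is the cortex array nearest to CMJ for SLC12A1, KCNJ1 and SLC5A1. Each panel has its own axis, which does not start at 0.

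Most genes of the thick ascending limb had higher values in CMJ, and CLDN16 passed the test. Of 12 genes listed 9 were measured, 1 rose (CLDN16), none fell and 8 did not pass; 8 of the 9 had positive differences, and the median was 0.63 against -0.01 over all identifiers and 0.01 over the 7428 genes with a symbol. The count of genes with no overlap between the arrays was 3 higher and 0 lower, where 2.61% of all genes with a symbol were higher without overlap and 2.26% lower. Over all identifiers the arrays did not overlap in 2.47%, 1.14% higher and 1.33% lower in CMJ. CLDN16, a claudin of the paracellular route for calcium and magnesium, measured 8.13, 8.17, 8.15, 8.17 and 8.57 on the cortex arrays and 8.86, 8.81, 8.88, 8.82 and 8.95 on the CMJ arrays. The 5 CMJ arrays lay close together, and cortex array 5 lay between them and the other cortex arrays. The difference was 0.63 (SE 0.09, limma adjusted p = 0.0362), and it was 0.78 within the first scan day and 0.53 within the second. With scan day as a block CLDN16 no longer passed (limma adjusted p = 0.0655), nor did it in the fit of all 40 arrays (0.485).

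SLC12A1, the sodium-potassium-chloride cotransporter NKCC2 and the target of loop diuretics, measured 9.52, 9.52, 9.42, 9.53 and 10.29 on the cortex arrays and 10.92, 10.64, 10.18, 11.22 and 11.51 on the CMJ arrays. Cortex array 5 lay above CMJ array 3, the other cortex arrays lay close together below all CMJ arrays, and the difference of 1.24 (SE 0.26) had an adjusted p of 0.106 by limma. KCNJ1, the potassium channel ROMK that recycles potassium for that transporter, measured 11.98, 11.88, 11.94, 11.92 and 12.45 on the cortex arrays and 12.78, 12.56, 12.44, 12.77 and 13.07 on the CMJ arrays, with a difference of 0.69 and a limma adjusted p of 0.108. Again only cortex array 5 reached a CMJ value. Of the other members, named here after their values were seen, the claudins CLDN19 and CLDN10 gave 1.15 and 0.52, both without overlap between the arrays. EGF, the growth factor precursor, was the one member with a negative difference, -0.41. Without Ctl-C replicate 5, a fit that called 0.682% of all identifiers, 5 members rose: SLC12A1 by 1.40, CLDN19 by 1.26, KCNJ1 by 0.79, CLDN16 by 0.71 and CLDN10 by 0.58. In the fit of all 40 arrays the members named here that passed were SLC12A1 (limma adjusted p = 0.0119), CLDN19 (0.0038), KCNJ1 (0.00546) and CLDN10 (0.0291). Of 21 alternatives, SLC12A1 and CLDN19 were called in 4 each, CLDN10 in 3 and KCNJ1 in 2. With scan day as a block none of these genes passed, with limma adjusted p from 0.123 to 0.164. Cortex array 5 was the highest cortex array for 8 of the 9 members.

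The proximal straight tubule list was mixed. Of 13 genes 9 were measured and none passed, with a median of -0.17 and a range from -0.67 to 1.40. SLC5A1 gave the largest positive value: it measured 6.30, 6.19, 6.10, 6.50 and 7.33 on the cortex arrays and 7.93, 7.70, 7.67, 7.80 and 8.30 on the CMJ arrays. All 5 CMJ arrays were above all cortex arrays and the difference was 1.40 (SE 0.23), but the limma adjusted p was 0.0567. Without Ctl-C replicate 5 it rose by 1.61 (adjusted p = 0.00366), and it was called as well with 75th percentile scaling, quantile normalization within each group, normexp background correction, the brightest probe, dim identifiers left out, the deposited matrix and the fit of all 40 arrays. It did not pass with scan day as a block (adjusted p = 0.0913). SLC3A1, the heavy subunit of the cystine transporter, differed by 0.05, and the arrays of both tissues overlapped. AQP7, a glycerol channel of the straight tubule, differed by 0.95 (adjusted p = 0.263) and cortex array 5, at 8.58, stood above the other cortex arrays, which lay between 7.31 and 7.53. Without that array AQP7 rose by 1.19 (adjusted p = 0.0375), which was the only 1 of 21 alternatives to call it, and in the fit of all 40 arrays the adjusted p was 0.229.

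Most genes of the proximal convoluted tubule had lower values in CMJ, and SLC22A8 passed the test. Of 17 genes 14 were measured, none rose, 1 fell (SLC22A8) and 13 did not pass; 13 of the 14 differences were negative, with a median of -0.29, and 6 genes were lower in CMJ without overlap between the arrays, as were 2.26% of all genes with a symbol and 1.33% of all identifiers. SLC22A8 measured 11.56, 11.53, 11.52, 11.41 and 11.65 on the cortex arrays and 11.00, 11.06, 11.04, 10.67 and 10.88 on the CMJ arrays. The groups did not overlap, with a difference of -0.61 (SE 0.09, limma adjusted p = 0.0347), which was -0.58 and -0.62 within the scan days. With scan day as a block it no longer passed (limma adjusted p = 0.064), nor did it in the fit of all 40 arrays (0.22). SLC34A1 and SLC34A3, the phosphate cotransporters of the brush border, differed by -0.24 and -0.16. Neither passed, with limma adjusted p of 0.277 and 0.414. Among members named after their values were seen, SLC22A6, the organic anion transporter OAT1, differed by -0.66, SLC7A8, a basolateral amino acid transporter, by -0.67, GATM, which makes the precursor of creatine, by -0.43, and CA4, the membrane-bound carbonic anhydrase, by -0.42. The arrays of these 4 genes did not overlap and none of them passed the threshold.

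In the distal convoluted and connecting tubule and in principal cells no gene passed and signs were mixed. In the list of the distal convoluted and connecting tubule 9 of 12 genes were measured, none passed, and the median was -0.13. TRPM6, the magnesium channel of the distal convoluted tubule, differed by -0.27 and PVALB, the calcium-binding parvalbumin, by 0.68 in the other direction, both without overlap between the arrays. CALB1, the calbindin of the connecting tubule, was named after its value was seen and differed by -0.44, also without overlap. For principal cells 11 of 13 genes were measured, none passed, and the median was -0.10: AQP2, the water channel regulated by vasopressin, differed by 0.60 and AQP3 by 0.48, while STC1, stanniocalcin 1, differed by -0.43 with no overlap. Cortex array 5 was the highest cortex array for all 11 principal cell genes. Without it their median was -0.03, and with quantile normalization within each group it was -0.21.

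For intercalated cells 7 of 13 genes were measured and all 7 had negative differences, none of which passed. The median was -0.44, and it stayed between -0.58 and -0.17 when the scaling, the signal or the probe summary was changed. ATP6V0A4, a proton pump subunit, differed by -0.21, and ATP6V1C2, another, by -0.66. SLC26A4 (pendrin), the chloride-bicarbonate exchanger of the base-secreting type, measured 5.06, 4.84, 5.08, 4.83 and 4.19 on the cortex arrays and 3.42, 4.05, 4.11, 3.38 and 2.51 on the CMJ arrays. The arrays did not overlap, although cortex array 5 came close to the highest CMJ arrays, and the difference was -1.30 (SE 0.31, limma adjusted p = 0.15). The ammonia transporters RHBG and RHCG differed by -0.57 and -0.44, and the cytosolic carbonic anhydrase CA2 by -0.44. SLC26A4, RHBG, RHCG and CA2 were named after their values were seen.

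**Figure D3:**
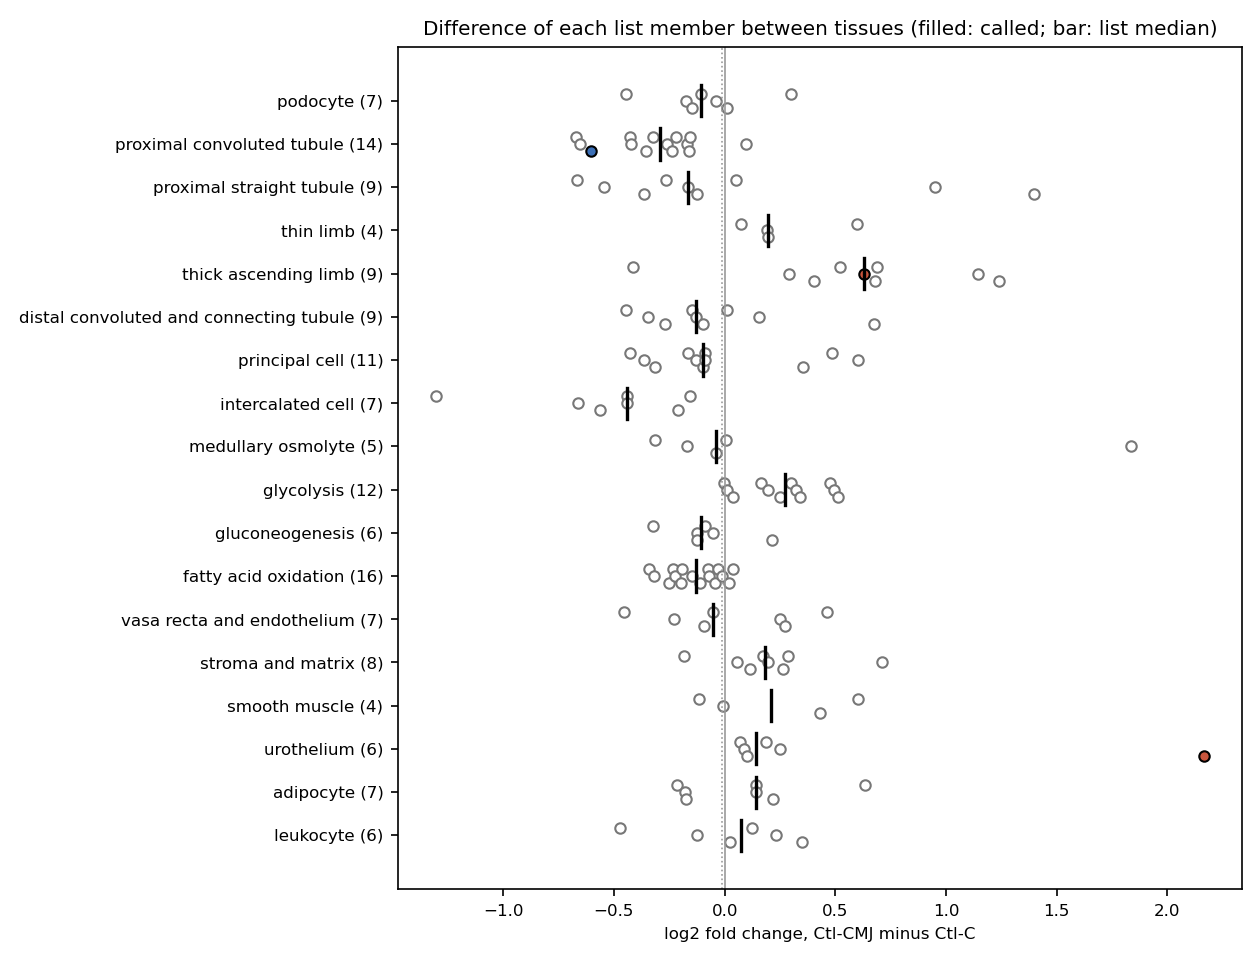
Log2 difference (Ctl-CMJ minus Ctl-C) of every measured member of 18 of the gene lists, 1 point per gene, with the number measured in brackets, the list median as a black bar, and called genes filled. The thick ascending limb has a median of 0.63, the proximal convoluted tubule -0.29 and the intercalated cells -0.44, and the called points are CLDN16, SLC22A8 and UPK3A. The solid vertical line marks 0 and the dotted one the median of all identifiers, -0.01.

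No glomerular or thin limb gene passed the test. Of 14 podocyte genes 7 were measured, none passed and the median was -0.11; PODXL, the surface sialomucin podocalyxin, differed by 0.01 and WT1, the podocyte transcription factor, by -0.45, without overlap for WT1 (adjusted p = 0.273). Of 8 juxtaglomerular and mesangial genes 4 were measured, with a median of -0.12 and none passing, and GATA3 differed by -0.16, while PDGFRB was well above background on 2 of the 5 CMJ arrays. The thin limb list had 4 of 6 genes measured, none passing and a median of 0.19. AQP1 was saturated on all 10 arrays, so no difference of it can be read.

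The largest rise of a named gene with good signal was that of UPK3A. It measured 7.98, 7.73, 7.89, 8.15 and 8.87 on the cortex arrays and 10.24, 10.04, 9.80, 10.53 and 10.82 on the CMJ arrays. Every CMJ array was above every cortex array, with cortex array 5 highest in its group, and the difference was 2.16 or 4.48-fold (SE 0.25 on the log2 scale, limma adjusted p = 0.0166). It was 2.38 within the first scan day and 2.02 within the second, and over the 10 fits that each left out 1 array the adjusted p was between 0.00309 and 0.077. Of the 8 urothelial genes listed 6 were measured, 1 rose (UPK3A) and 5 did not pass, and the median of the list was 0.14. Its summed intensity, UPK3A included, ran from 262 to 547 in cortex and from 951 to 1886 in CMJ. UPK1B and UPK1A differed by 0.25 and 0.19, UPK2 was well above background on 1 array of each tissue, TP63 on 1 cortex array, and KRT5, a basal keratin, on none. Whether urothelium in the biopsies has a part in the UPK3A difference was not tested.

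Among the 10 largest rises, NMU, the neuropeptide neuromedin U, was well above background on no cortex array and on all 5 CMJ arrays. Its measured values were 1.05, 1.82, 1.43, 1.15 and 2.56 on the cortex arrays and 4.86, 4.51, 4.26, 4.92 and 5.15 on the CMJ arrays, and against the lowest signal that counts as well above background the rise was at least 5.93-fold (limma adjusted p = 0.00813). FOXA1, a forkhead transcription factor of epithelia, measured 0.94, 1.37, 1.40, 0.61 and 2.20 in cortex, where 1 array was well above background, and 3.47, 3.09, 3.22, 3.14 and 3.84 in CMJ, a fitted difference of 2.05 (adjusted p = 0.0298) whose size is uncertain because the other 4 cortex arrays were not well above background. HTR1D, a serotonin receptor, was above background on no cortex array and 2 CMJ arrays, so its fitted rise gives no usable size. EPHA7, a receptor of ephrin ligands, rose by 1.35, from 4.09, 4.31, 4.58, 4.81 and 5.26 in cortex to 5.96, 5.95, 5.78, 5.95 and 6.15 in CMJ (adjusted p = 0.0366). The CMJ arrays of EPHA7 lay closer together than its cortex arrays, and the groups did not overlap.

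The rest of the 10 largest rises were genes of secreted proteins. TNC, the matrix glycoprotein tenascin C, measured 5.03, 4.85, 4.87, 4.38 and 5.54 on the cortex arrays and 6.73, 6.18, 6.21, 6.56 and 7.11 on the CMJ arrays and rose by 1.63 (SE 0.24, limma adjusted p = 0.0366). F10, coagulation factor X, measured 6.16, 6.24, 6.24, 6.22 and 7.05 on the cortex arrays and 7.99, 8.09, 8.31, 7.67 and 7.94 on the CMJ arrays, a rise of 1.62 (adjusted p = 0.0166). Apart from cortex array 5, which was higher, the cortex arrays of F10 lay close together, and the groups did not overlap. CCL28, a chemokine of mucosal epithelia, rose by 1.57 (adjusted p = 0.038), from a range of 6.61 to 7.66 in cortex to 8.20 to 9.16 in CMJ. GC, the vitamin D binding protein of plasma, rose by 1.49 with 1 identifier and 1.52 with another (adjusted p = 0.0298 for the first), with 9.16 to 10.11 in cortex against 10.61 to 11.30 in CMJ. CFB, complement factor B of the alternative pathway, rose by 1.44 (adjusted p = 0.0339), with 7.08 to 7.87 in cortex against 8.22 to 9.15 in CMJ. With scan day as a block TNC, CCL28, CFB, EPHA7, FOXA1 and HTR1D no longer passed, with limma adjusted p from 0.0579 to 0.0776, while NMU, UPK3A, F10 and GC did. In the fit of all 40 arrays TNC (0.286), CFB (0.103), GC (0.583 and 0.518 for its identifiers) and HTR1D (0.0966) did not pass, so that NMU, UPK3A and F10 were the ones of these 10 that passed in both.

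Further genes were called outside the 10 largest rises and are named here after their values were seen. C8G, the gamma chain of complement component 8, measured 5.72, 5.67, 5.82, 5.69 and 6.20 on the cortex arrays and 7.09, 7.08, 7.15, 6.78 and 7.02 on the CMJ arrays, and rose by 1.21 (adjusted p = 0.00813), with 1.17 for its second identifier. COLEC11, a collectin that starts the lectin pathway, rose by 1.08. The chemokine CCL20 rose by 1.08, IGFBP2, which binds insulin-like growth factors, by 0.95, and LGALS1, galectin-1, by 0.62. BMP5, a bone morphogenetic protein, was well above background on all 5 CMJ arrays and no cortex array, a rise of at least 2.06-fold, and BMPR1B, a receptor of that family, fell by 0.69, from 5.32, 5.28, 5.40, 5.08 and 5.11 in cortex to 4.54, 4.55, 4.44, 4.64 and 4.56 in CMJ (adjusted p = 0.0166). GCM1, a transcription factor, rose by 1.07 and EPOR, the erythropoietin receptor, by 0.59. Erythropoietin itself, EPO, measured 3.95, 4.29, 3.99, 4.93 and 6.12 on the cortex arrays and 6.73, 6.23, 5.66, 6.94 and 7.23 on the CMJ arrays: its difference was large, 1.90, but cortex array 5 lay above CMJ array 3 and it did not pass (SE 0.45, adjusted p = 0.153). Without Ctl-C replicate 5 EPO rose by 2.27 (adjusted p = 0.0274), the only 1 of 21 alternatives to call it, and in the fit of all 40 arrays the adjusted p was 0.141. With scan day as a block GCM1, EPOR, IGFBP2 and BMP5 no longer passed, with limma adjusted p from 0.0579 to 0.0713. In the fit of all 40 arrays C8G and IGFBP2 passed, and COLEC11, CCL20, LGALS1, BMP5, BMPR1B, GCM1 and EPOR did not, with adjusted p from 0.0961 to 0.476.

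Among enzymes and transporters, also named after their values were seen, OAT rose in CMJ. It measured 9.78, 9.81, 9.86, 9.99 and 10.26 on the cortex arrays and 10.92, 11.05, 10.98, 11.10 and 10.96 on the CMJ arrays. The groups did not overlap, with cortex array 5 the highest of its group. The difference was 1.06 or 2.09-fold (SE 0.10, limma adjusted p = 0.00813), and its second identifier, read by the 2 probes printed above, gave 1.1. Within the scan days it was 1.15 and 1.01. In the fit of all 40 arrays neither identifier of OAT passed (limma adjusted p = 0.551 and 0.55). CA9, a membrane carbonic anhydrase, rose by 0.74, ABCB6, a porphyrin transporter, by 0.53, CLIC1, a chloride channel protein, by 0.52, ACYP1, an acylphosphatase, by 0.51 and SELENOM, a selenoprotein, by 0.54. FABP3, a fatty acid binding protein, was called with 1 identifier (a rise of 0.98, adjusted p = 0.0475) but not with its brighter one, at 0.88 with an adjusted p of 0.0823. PLN, phospholamban, and TNNI3, cardiac troponin I, both known as regulators of calcium handling and contraction in heart muscle, rose by 0.92 and 0.63, the latter with 8.42 to 8.60 in cortex against 9.08 to 9.26 in CMJ (adjusted p = 0.00813). ANKRD33B and C13H21orf62 rose by 1.17 and 1.13. With scan day as a block CA9, ABCB6, CLIC1, ACYP1, FABP3, ANKRD33B and the second identifier of PLN no longer passed, with limma adjusted p from 0.0506 to 0.0896. In the fit of all 40 arrays ABCB6, ANKRD33B and the dimmer identifier of FABP3 passed, the brighter one did not (0.0821), and CA9, CLIC1, ACYP1, SELENOM, PLN, TNNI3 and C13H21orf62 did not, with adjusted p from 0.0681 to 0.598.

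The falls were fewer and smaller. ADAMDEC1, a metalloprotease of the ADAM family known from macrophages, measured 8.22, 8.29, 8.31, 7.96 and 8.09 on the cortex arrays and 7.04, 7.22, 7.16, 7.37 and 6.98 on the CMJ arrays. It fell by 1.02 (SE 0.10, limma adjusted p = 0.00813), which was a fall by 1.19 within the first scan day and by 0.90 within the second. SLC26A6 measured 7.81, 7.95, 7.77, 8.10 and 8.07 on the cortex arrays and 7.14, 7.30, 7.43, 7.33 and 6.95 on the CMJ arrays and fell by 0.71 (SE 0.11, adjusted p = 0.0393), which was 0.0579 with scan day as a block. With that block ARVCF did not pass either (0.0847), while ADAMDEC1, BMPR1B and the dimmer identifier of HOMER2 did (the brighter one had 0.127). ARVCF, a catenin of cell junctions, fell by 0.56, and HOMER2, a scaffold protein, fell by 0.52 with the identifier that was called and by 0.45, without passing, with its brighter one. Together with BMPR1B and SLC22A8 these 6 genes are all those with a symbol that were called lower in CMJ, and in the fit of all 40 arrays ADAMDEC1 (limma adjusted p = 0.0129) was the only one of the 6 that passed.

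Metabolic lists held no called gene. Glycolysis had 12 of 16 genes measured, a median of 0.27, 11 positive differences and 3 genes higher without overlap (2.61% of all genes with a symbol were), among them LDHA and LDHB, the subunits of lactate dehydrogenase, at 0.48 and 0.51. The median was 0.14 with quantile normalization within each group, and Ctl-C replicate 5 was the highest cortex array for 11 of the 12 members. HK1, a hexokinase, differed by 0.30 with overlap, and HK2 was above background on no array. Gluconeogenesis (6 of 8 measured) had a median of -0.11, with PCK1 and PCK2, the cytosolic and mitochondrial forms of the rate-setting carboxykinase, at -0.09 and -0.32. Fatty acid oxidation (16 of 18 measured) had a median of -0.13, with the carnitine palmitoyltransferases CPT1A and CPT2 at -0.19 and -0.25, and 14 of its 16 differences were negative. Organic ion and drug handling (12 of 18 measured) had a median of -0.06; the cation transporter SLC22A2 differed by 0.02, with overlap. In the list of calcium, phosphate and vitamin D (6 of 8 measured, median -0.23) CYP24A1, which breaks down vitamin D, differed by -0.25 and VDR, its receptor, by -0.55, both without overlap, while CYP27B1, which makes the active hormone, ranged from 5.99 to 7.45 in cortex and from 4.66 to 7.24 in CMJ.

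Among medullary osmolyte genes 5 of 9 were measured and none passed, with a median of -0.04. That median was 0.02 without Ctl-C replicate 5 and -0.17 with quantile normalization within each group. AKR1B1, the aldose reductase that makes sorbitol in cells of the salt-rich medulla, stood out with a difference of 1.83: it measured 6.70, 6.70, 6.65, 6.75 and 7.10 on the cortex arrays and 8.95, 8.19, 6.97, 9.09 and 9.86 on the CMJ arrays. The CMJ arrays spread far more widely than the cortex arrays, the lowest of them, array 3, lay below cortex array 5, and the adjusted p was 0.176, against 0.00122 in the fit of all 40 arrays. That fit uses 1 spread for all groups, and not the wide one of these CMJ arrays. AKR1B1 was called in 2 of 21 alternatives. SLC6A12, the betaine transporter named after its value was seen, differed by 0.00. In the list of prostaglandins and renal hormones 13 of 14 were measured, none passed and the median was 0.41. The cyclooxygenases PTGS1 and PTGS2 differed by 0.65 and -0.34, with overlap, and PTGDS, which makes prostaglandin D2, by 0.81 (adjusted p = 0.103). PTGDS rose by 0.93 without Ctl-C replicate 5 and passed in the fit of all 40 arrays (0.00675). It was called in 3 of 21 alternatives, and not with scan day as a block (limma adjusted p = 0.153).

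On the lists of other cell types that a biopsy could hold, no gene but UPK3A was called; TNC, ADAMDEC1, PLN and TNNI3, named above, are on none of these lists. The endothelial list (7 of 10 measured) had a median of -0.05, with PECAM1 and VWF at -0.05 and 0.27 and KDR, a receptor of vascular growth factor, at -0.46 without overlap. Stroma and matrix (8 of 12) had a median of 0.18 and smooth muscle (4 of 8) of 0.21, with COL1A2, COL6A3, ACTA2 and CNN1 at 0.20, 0.17, 0.43 and 0.60. The summed intensity of the stroma list ran from 8354 to 9004 in cortex and from 7288 to 15307 in CMJ, and that of the smooth muscle list from 4862 to 8634 and from 6623 to 11991. FN1, fibronectin, named after its value was seen, was highest on CMJ array 5, at 11.51, with the cortex arrays from 9.74 to 10.10. For adipocytes (7 of 7) the median was 0.14 and the summed intensity ran from 644 to 707 in cortex and from 524 to 822 in CMJ, and ADIPOQ and LEP differed by 0.14 and -0.18. Leukocytes (6 of 10) had a median of 0.07, which turned negative under at least 1 other scaling, with CD3E and CD79A at 0.12 and -0.47. The erythrocyte list (2 of 6) had HBB above background on 1 cortex and 2 CMJ arrays and SLC25A37 at -0.07. Immediate early genes, which respond to tissue handling (5 of 10), had a median of 0.16, with FOS and JUN at 0.16 and -0.04. The part of these cell types in the differences above was not tested.

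The same tissue contrast was then read in kidneys that the control comparison did not use. In WI kidneys 280 of 35939 identifiers were called between CMJ and cortex (0.779%), 224 higher and 56 lower. Without WI-C replicates 1, 4 or 5 the count was 112, 151 and 140, and without WI-CMJ replicates 1, 3, 4 or 5 it was 113, 171, 185 and 159. All 81 identifiers called in control kidneys had the same sign in WI kidneys, where 59.5% of all identifiers did, and 29 of the 81 (35.8%) were called there as well, which is 10.4% of the WI calls. The median difference of the 62 was 1.17 in control and 1.03 in WI kidneys. After 6 h of cold storage it was 0.73, with 61 of 62 of the same sign, and after 24 h it was 0.51, again with 61 of 62. For the 19 that were lower the medians fell by 0.69, 0.48, 0.29 and 0.19 in the same order, and 19, 16 and 18 of them were lower in CMJ in WI, WI+CS6h and WI+CS24h kidneys. Over all identifiers the share of like sign with control was 50.1% at 6 h and 54.3% at 24 h. Since the identifiers were chosen by their control values, those values lean towards large ones, and the 6 h and 24 h arrays come from the same kidneys.

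**Figure D4:**
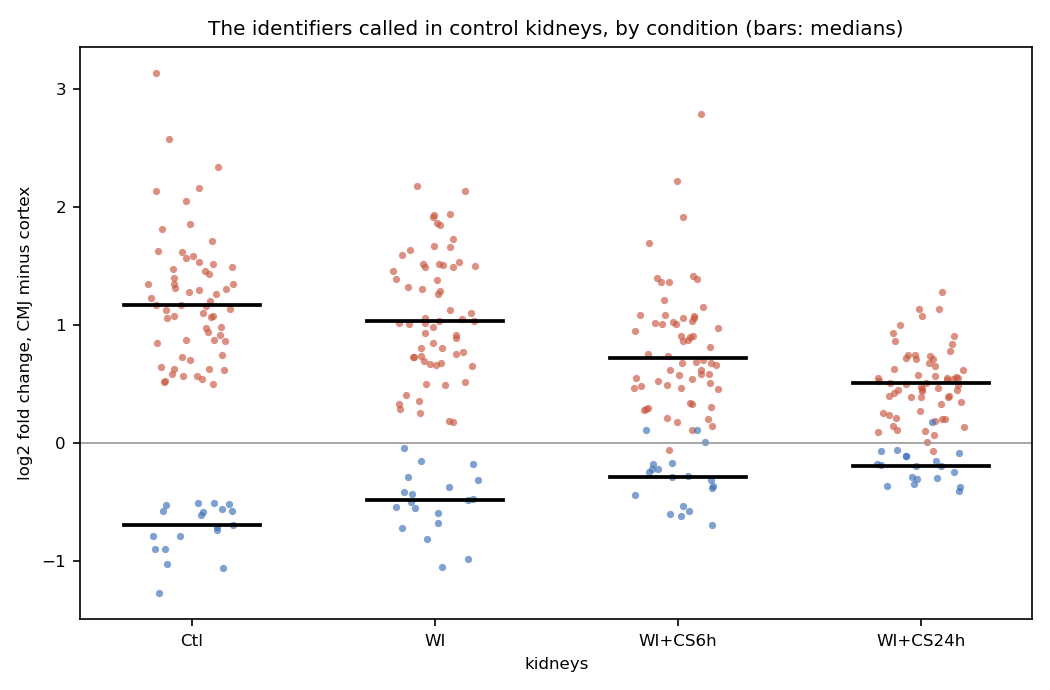
Log2 difference between CMJ and cortex of the 62 identifiers called higher (red) and the 19 called lower (blue) in control kidneys, in control, WI, WI+CS6h and WI+CS24h kidneys; black bars are medians and points are spread sideways for visibility only. The medians of the higher set are 1.17, 1.03, 0.73 and 0.51, and those of the lower set lie 0.69, 0.48, 0.29 and 0.19 below 0; the control values chose the identifiers.

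For single genes, OAT differed by 1.03 in WI, 1.01 after 6 h and 0.51 after 24 h, UPK3A by 1.50, 0.91 and 0.71, and ADAMDEC1 by -0.98, -0.38 and -0.19. CLDN16 was called in WI kidneys at 0.67 (limma adjusted p = 0.0348), and of the genes that had not passed in control kidneys SLC5A1 rose there by 1.41 (adjusted p = 0.0107), SLC12A1 by 1.16 (adjusted p = 0.0327) and CLDN19 by 1.15 (adjusted p = 0.0178). SLC26A4 fell by 2.26 in WI kidneys (adjusted p = 0.0219). Genes of other lists rose in CMJ of WI kidneys as well, named after their values were seen: the immediate early genes FOS by 1.48, EGR1 by 1.29 and JUN by 0.52, FN1 of the matrix by 1.14 and AGT, angiotensinogen, by 1.41. The medians there were 0.52 for immediate early genes, 0.69 for stroma and matrix, 0.82 for smooth muscle and 0.69 for adipocytes, against 0.16, 0.18, 0.21 and 0.14 in control kidneys, and the part of tissue handling or of these cell types in the WI values was not tested. The thick ascending limb list had 3 of its 9 genes called higher in WI kidneys, with a median of 0.47, where 0.623% of all identifiers were called higher, and the intercalated list 1 of 7 called lower, with a median of -0.67, where 0.156% were called lower. For AKR1B1 the difference was 1.83 in control, 0.43 in WI, 0.06 at 6 h and 0.16 at 24 h. EPOR differed by 0.18, -0.05 and -0.06.

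Whether the tissue difference itself was altered by ischemia was tested as an interaction in 1 limma fit of all 40 arrays. No identifier of 35934 was called for WI against control, for WI+CS6h or for WI+CS24h, with 710 (1.98%), 1856 (5.17%) and 928 (2.58%) at an unadjusted p under 0.05. For AKR1B1 the unadjusted p of the interaction with WI was 0.0014, and the limma adjusted p was 1 for WI, 0.836 for 6 h and 1 for 24 h. With quantile normalization within each group, 1013 identifiers were called for 6 h and 194 for 24 h, and 1 was called for 24 h in the deposited matrix. Without Ctl-CMJ replicate 3 the counts were 1, 2 and 2, and for 6 h they were 2 without WI+CS6h-C replicate 2 and 1 without WI+CS6h-C replicate 4.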

How the data were processed

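Total RNA of 40 kidney biopsies, amplified and labelled with Cy3, was read on single-color Agilent arrays, and the 10 control arrays gave the comparison of CMJ with cortex. The deposited scanner files, made by the authors with Agilent Feature Extraction 11.5.1.1 per the labels, hold an intensity (background-subtracted processed signal) for each of 43803 non-control spots, with flags for background and saturation. The deposited matrix of log2 values, which the authors made with limma and R 2.15.2, was used as an alternative. The log2 intensity was quantile normalized over the 40 arrays, which forces 1 distribution on all samples, and spots were averaged into 35955 identifiers; spots flagged as outliers were left out, and identifiers left without a value in a group were not tested. A symbol was known for 8903 identifiers, from the files or through RefSeq accessions.

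Differences were tested with limma 3.58.1 (lmFit and eBayes) in R 4.3.3 on the 10 arrays, with Benjamini-Hochberg adjustment; an identifier was called at an adjusted p under 0.05 and a log2 difference of at least 0.5. The fit was tested on simulated data. Interactions used all 40 arrays. A gene with several identifiers was represented by the one with the highest mean signal. Named were the given markers, the called and the leading members of the gene lists, and the 10 largest rises and falls among called genes with a symbol whose arrays do not overlap; others were named after their values were seen. The groups follow the labels, but these members and the gene lists were chosen with earlier results of these data known. Probes not well above background on a whole group are given as a bound on the fold. Precision is limited by the 5 arrays per group. The alternatives were other scalings, normexp background correction with an offset of 50, the deposited matrix, the brightest probe, dim identifiers left out, blocks for replicate number, scan day and slide, a fit of all 40 arrays, and each array left out in turn; the share of spots above background as a covariate was chosen after seeing the data. Figures were drawn with matplotlib 3.10.9.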

Additional observations from a re-analysis of the deposited data

Results flagged for a closer look

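Among 207 groups of 5 arrays tested for 105 named genes, 17 held 1 array far from its nearest neighbour by Dixon's criterion; chance alone gives about 1 in 20 groups. All 17 were in cortex, and 15 of them were Ctl-C replicate 5. It was the highest cortex array for SLC12A1 (log2 intensity 10.3), KCNJ1 (12.5), CLDN16 (8.57) and CLDN19 (9.82) of the thick ascending limb and for AQP7 (8.58), AKR1B1 (7.1), LDHB (13.8), VDR (6.54) and PTGDS (8.17). It was also the highest for F10 (7.05), C8G (6.2), IGFBP2 (12.1), SELENOM (5.75) and ACYP1 (7.93), and it was the lowest for SLC26A4 (4.19). Ctl-C replicate 4 was the lowest cortex array for CNN1 (5.19) and RHCG (6.34). With the exception of VDR, whose level was lower in CMJ, the values of Ctl-C replicate 5 lay on the side of CMJ; what sets this array apart was not tested.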

How the results depend on the processing

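In control kidneys the 81 calls became 187 (70 higher, 117 lower) with quantile normalization within each group, 34 (28 and 6) with normexp background correction, 170 (133 and 37) with dim identifiers left out, 35 (30 and 5) with scan day as a block and 28 (22 and 6) with the share of spots above background as a covariate, an alternative chosen after seeing the data. With 75th percentile scaling there were 74 (68 and 6), in the deposited matrix 81 (61 and 20), of which 54 were among the original 81, with the brightest probe 70, and in the fit of all 40 arrays 112 (97 and 15), of which 35 were among the 81. Leaving out 1 array gave 0 (without Ctl-CMJ replicate 1) to 245 (without Ctl-C replicate 5). In WI kidneys the 280 calls became 83 with normexp and 439 with dim identifiers left out, and 112 to 292 with 1 array left out. The interactions, 0 called each, became 1013 for WI+CS6h and 194 for WI+CS24h with quantile normalization within each group and 1 for WI+CS24h in the deposited matrix, and ranged over 0 to 1 for WI, 0 to 2 for WI+CS6h and 0 to 2 for WI+CS24h with 1 array left out. The cause of these shifts was not tested.

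With the replicate number as a block limma called 1 identifier in control kidneys and 0 in WI kidneys, where 3751 had an unadjusted p under 0.05, and 0 for each interaction. Whether the numbers pair the samples could not be settled from the values. Same-numbered cortex and CMJ arrays deviated from their group means with correlations of -0.13 to 0.08, and 0 of 5 cortex arrays matched its own number best. The best match of each cortex array reached only 0.095 to 0.155, so no pairing stood out and a true one might not show. Over 113 identifiers of 106 named genes and all alternatives, 2370 values were compared. Of these, 1870 stayed on their side of the threshold, 453 lost the call, 47 gained it and 0 called values reversed. The 453 all came from the 41 identifiers with a symbol among the 81, and the 1870 include uncalled values that stayed uncalled. Among the 1870, 29 uncalled values changed sign, in 12 genes. Dim probes limit the sizes of NMU, BMP5, FOXA1, HTR1D, HBB and PDGFRB, and saturation that of AQP1.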
